A study of Rattus norvegicus with 3 samples.

Results

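Semaphorins, ephrins, Slits and netrins are guidance ligands, and plexins, neuropilins, Eph, Robo, Unc5 and Dcc proteins are the receptors that bind them. A total of 53 genes of this kind had a named probe among the 13301 genes named on a whole rat genome array. They were 29 ligands, 23 receptors and Unc50. The genes were chosen by symbol, found through the RefSeq accession of each probe. The rule uses no measured value, but it was set with earlier results of these data known. The symbols taken were those starting with Sema, Plxn, Epha, Ephb, Efna, Efnb, Robo or Unc5, together with Nrp1, Nrp2, Slit1, Slit2, Slit3, Ntn1, Ntn4 and Dcc. Unc50, a Golgi protein and no netrin receptor, matched by its first letters and was kept in the counts. For 17 further genes whose symbols meet the rule no named probe was found, and they were not analysed here.

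Guidance ligands are secreted or held on the cell surface, and they steer a growing axon or a migrating cell by attracting or repelling its leading edge. Semaphorins act through plexins, which secreted class 3 semaphorins reach by way of the neuropilins, Slits act through Robo receptors, and netrins act through Dcc and Unc5 receptors. Ephrins bind Eph receptor tyrosine kinases on neighboring cells, so both partners can signal. The same genes are used outside the nervous system in blood vessels, bone and marrow stroma, and many of them are studied in tumors as regulators of migration and invasion.

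The genes were measured in 3 cell populations of F344 rats. COS1NR is an osteosarcoma line and MFH1NR a malignant fibrous histiocytoma line, each raised from a tumor that the chemical 4-HAQO had induced, and both carry a p53 mutation per the study's methods. The reference cells were mesenchymal stem cells (MSCs) from the marrow of the femur. The labels call them freshly isolated, while the methods describe a monolayer grown on plastic, with no sorting step and with more serum in the medium than the sarcoma lines received. The question was which genes differ between each sarcoma and MSCs. Each cell type was measured on 1 array, so there were no replicates, no difference was tested against a spread between cultures, and each sarcoma type stands for 1 cell line. Both sarcoma arrays lay on 1 slide and were scanned together, apart from the slide and scan of the MSC array. In the comparisons with MSCs, slide and cell type therefore cannot be told apart.

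Of 43379 spots that were not controls, 56.6% to 59.7% per array were well above background by the call of the scanner software, and none was saturated. Values are processed intensities in arbitrary units, and each fold was taken after dividing an intensity by the 75th percentile of its array. This percentile was 589 in MSCs, against 774 in COS1NR and 994 in MFH1NR, so equal intensities stand for a lower scaled level in the sarcomas. The lowest intensity well above background was 18.0 in MSCs, against 29.4 in COS1NR and 30.1 in MFH1NR. Where a gene was not well above background on 1 array, its intensity there was raised to this lowest one if it lay below it, and was otherwise left as measured. In both cases the fold is a bound and is written as "at least". No fold is given where neither array was well above background. Each member probe was printed once per array. For probes printed 10 times the median SD was 0.0485 to 0.0625 in log2 per array, and it covers spots of 1 hybridization, not cultures or labeling. The software's own error for the member intensities well above background ranged from 10% to 22.2%. A gene's brightest and second brightest probes gave log2 ratios that differed by a median of 0.28 for COS1NR against MSCs, 0.31 for MFH1NR against MSCs and 0.15 between the sarcomas (1891 genes).

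Of the 53 guidance genes, 38 were well above background on at least 1 array (71.7%, against 75.2% of all genes) and 21 on all 3 (39.6%, against 59.6%). The number was 34 in MSCs, against 28 in COS1NR and 30 in MFH1NR, or 64.2%, 52.8% and 56.6%, where all genes had 69.7%, 65.7% and 66.6%. The 15 genes not well above background on any array were Dcc, Efnb2, Efnb3, Epha1, Epha5, Ephb1, Ntn1, Ntn4, Plxna4, Plxnb3, Sema3e, Sema4b, Sema4d, Slit1 and Unc5a. Both netrins of the symbol rule, Ntn1 and Ntn4, were among them, and so was Dcc, the receptor through which netrins attract axons. Ephb2, Robo1 and Sema3d passed in MSCs alone (5.66%, against 4.41% of all genes), and Sema3g and Sema6a passed in both sarcomas but not in MSCs (3.77%, against 1.88%). Whatever their call in MSCs, 7 genes passed in MFH1NR and not in COS1NR (13.2%, against 5.13%), and 5 passed in COS1NR and not in MFH1NR (9.43%, against 4.2%).

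**Figure D1:**
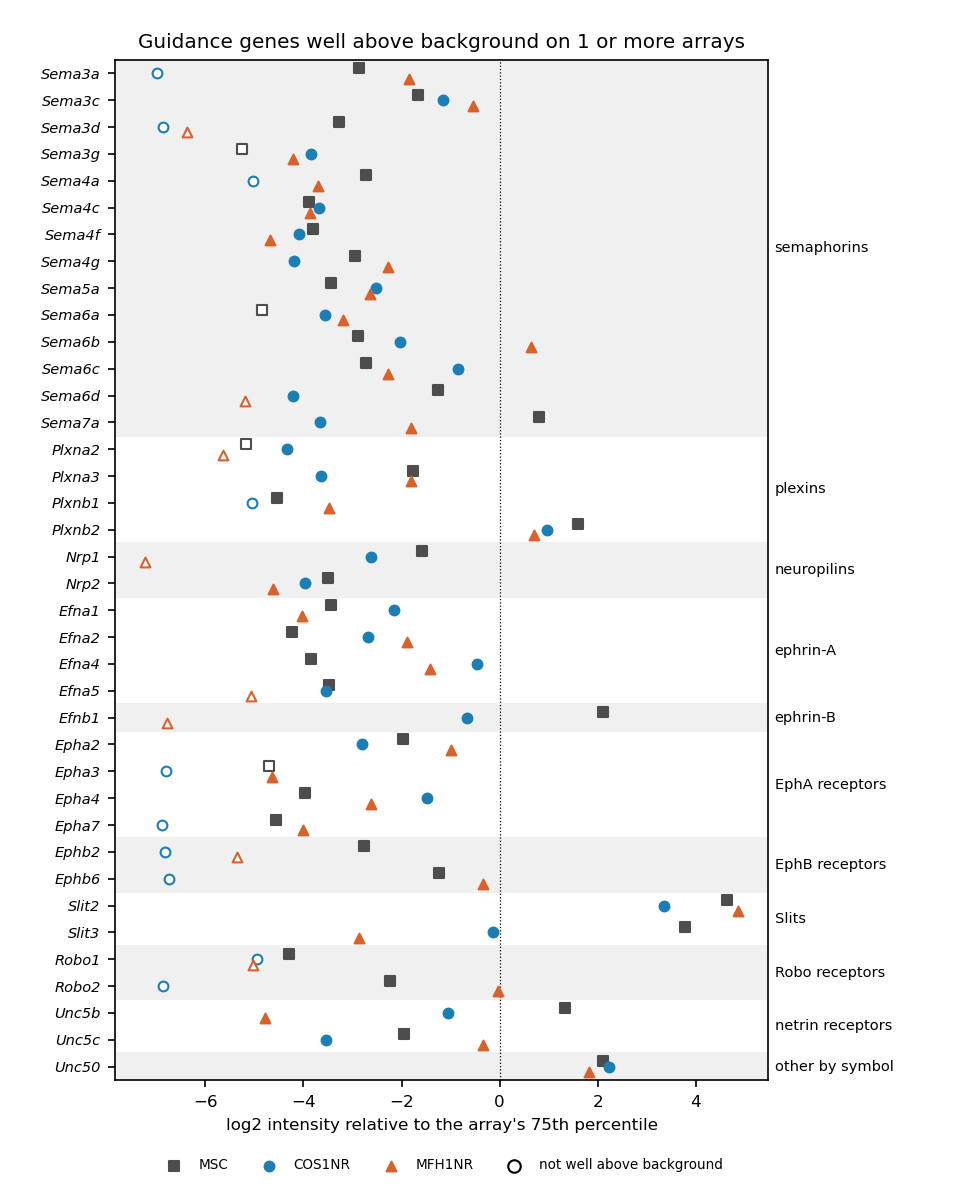
Log2 intensity of 38 guidance genes relative to the 75th percentile of each array (x axis), with 1 row per gene grouped by family, squares for MSCs, circles for COS1NR and triangles for MFH1NR, 1 array each. Open symbols are not well above background, symbols are comparable along a row only because each gene has its own probe, and the gaps of Efnb1, Slit3 and Unc5b are wide with MSCs at the right, and those of Robo2 and Ephb6 are wide with MFH1NR at the right.

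In COS1NR, guidance genes were at least 2-fold lower than in MSCs more often than higher. A total of 16 of the 53 genes were at least 2-fold lower, or 30.2%, against 14.6% of all 13301 genes. Only 7 were at least 2-fold higher, or 13.2%, against 15.1% of all genes. The median log2 ratio was -0.47 over the 37 guidance genes with a ratio and 0.10 over the 9709 genes with one. Without scaling between arrays 10 were higher (18.9%, against 23.8% of all genes) and 13 lower (24.5%, against 10.8%). Macrophage markers moved with this comparison: all 13 named macrophage markers were at least 2-fold lower in COS1NR, their summed scaled level was 178 in MSCs and 12.4 in COS1NR, and their part in the result was not tested. The summed level of 6 smooth muscle and pericyte markers was 178 in MSCs and 1.83 in COS1NR, that of 12 fibroblast and MSC markers was 1446 and 225, and their part was not tested either. Without the brightest marker of each list, the macrophage sums were 123 and 12.3 (without Lyz2). Those of smooth muscle and pericyte were 45.3 and 1.82 (without Tagln), and those of fibroblast and MSC 937 and 223 (without Col3a1). Fewer cells of a type and less RNA per cell cannot be told apart in bulk RNA.

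In MFH1NR, 10 guidance genes were at least 2-fold higher than in MSCs (18.9%, against 14.3% of all genes) and 10 were at least 2-fold lower (18.9%, against 16.0% of all genes). The median log2 ratio was 0.07 over the 37 guidance genes with a ratio, and that of all genes was 0.02 over 9822 genes. Without scaling 17 were higher (32.1%, against 30.5% of all genes) and 8 lower (15.1%, against 9.57%). With scaling by the array median 14 were higher (26.4%, against 18.2%) and 9 lower (17%, against 13.6%). With normexp, a model-based background correction of the spot signal, 4 were higher (7.55%, against 10.6%) and 8 lower (15.1%, against 14.6%), so the split depended on the processing. The 13 macrophage markers were at least 2-fold lower in MFH1NR too, with a summed scaled level of 4.95, the smooth muscle and pericyte markers had one of 1.14 and the fibroblast and MSC markers one of 371, and their part in this result was also not tested.

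Between the sarcomas, which shared a slide, 12 guidance genes were at least 2-fold higher in MFH1NR than in COS1NR (22.6%, against 8.80% of all genes), and 8 were at least 2-fold lower (15.1%, against 10.7% of all genes). The median log2 ratio of MFH1NR to COS1NR was -0.12 over 35 guidance genes and -0.08 over 9422 genes. The members were thus spread wide around a median close to that of all genes.

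**Figure D2:**
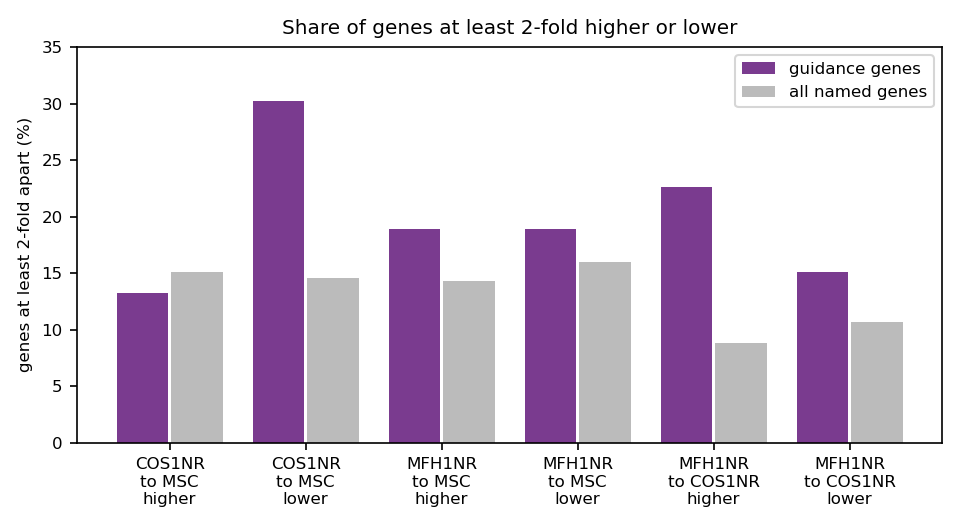
Share of the 53 guidance genes (purple) and of all 13301 named genes (grey) that were at least 2-fold higher or lower in each comparison of 2 arrays, in percent. The guidance genes exceed all genes most in the group lower in COS1NR than in MSCs (30.2% against 14.6%) and in the group higher in MFH1NR than in COS1NR (22.6% against 8.80%).

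Ligands and receptors were also counted apart, to be read beside the shares of all genes, which, higher and lower, were 15.1% and 14.6% for COS1NR to MSCs, 14.3% and 16.0% for MFH1NR to MSCs, and 8.80% and 10.7% for MFH1NR to COS1NR. Of the 29 ligands, 6 were at least 2-fold higher and 9 lower in COS1NR than in MSCs, with a median log2 ratio of -0.04. Of the 23 receptors, 1 was higher and 7 were lower in COS1NR, with a median of -0.84. In MFH1NR the ligands were 6 higher and 6 lower and the receptors 4 higher and 4 lower, with medians of 0.24 and 0.07. Between MFH1NR and COS1NR, 6 ligands were higher and 5 lower in MFH1NR, and 6 receptors were higher and 3 lower.

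The semaphorins held the most members, and 14 of 17 were well above background on at least 1 array. Sema7a, a semaphorin anchored in the membrane by a lipid that binds plexin C1 and beta1 integrin, had an intensity of 1034 in MSCs, against 61.1 in COS1NR and 283 in MFH1NR. It was 22.2-fold lower in COS1NR than in MSCs and 6.16-fold lower in MFH1NR. Sema6d, a transmembrane ligand of class A plexins, had an intensity of 247 in MSCs, against 41.6 in COS1NR and 27.2 in MFH1NR, where it was not well above background. Relative to MSCs it was 7.79-fold lower in COS1NR and lower by at least 13.8-fold in MFH1NR. Both genes were thus highest in MSCs and lower in each sarcoma.

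Sema6b, a transmembrane semaphorin of the same class as Sema6d, had the opposite order. Its intensity was 79.2 in MSCs, against 191 in COS1NR and 1558 in MFH1NR, which was 11.7-fold higher in MFH1NR than in MSCs and 6.36-fold higher than in COS1NR. Its difference between COS1NR and MSCs was 1.83-fold. Sema6c was highest in COS1NR instead, at 89.7 in MSCs, against 429.9 in COS1NR and 204 in MFH1NR. It was 3.65-fold higher in COS1NR than in MSCs and 2.71-fold lower in MFH1NR than in COS1NR. Sema6a failed the background call in MSCs and had an intensity of 65.3 in COS1NR and 109 in MFH1NR, at least 2.41-fold and at least 3.13-fold higher. Between the sarcomas Sema6a differed by 1.30-fold, and its second probe gave the opposite direction, with a log2 ratio of MFH1NR to COS1NR of -0.18. Sema6b, Sema6c and Sema6d thus each had their highest level in a different cell type.

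Among the secreted class 3 semaphorins, Sema3a, which collapses growth cones through Nrp1, separated the sarcomas. Its intensity was 80.3 in MSCs, against 6.13 in COS1NR, where it was not well above background, and 275 in MFH1NR. It was at least 3.59-fold lower in COS1NR than in MSCs, 2.03-fold higher in MFH1NR than in MSCs and at least 7.28-fold higher in MFH1NR than in COS1NR. Sema3c was higher in both sarcomas, at 186 in MSCs, against 346 in COS1NR and 680 in MFH1NR, with folds of 1.42 and 2.17. Sema3d was well above background in MSCs alone, with an intensity of 60.6, and was lower by at least 2.71-fold in COS1NR and by at least 3.40-fold in MFH1NR. Sema3g went the other way, at 54.1 in COS1NR and 53.4 in MFH1NR and not well above background in MSCs, at least 2.29-fold and at least 1.76-fold higher. No direction was therefore common to the class.

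Class 4 and class 5 semaphorins are transmembrane proteins. Sema4a, which also acts on immune cells, had an intensity of 89.4 in MSCs and 76.2 in MFH1NR. It fell short of the background call in COS1NR and was lower there than in MSCs by at least 3.99-fold. Sema4g had an intensity of 76.1 in MSCs, against 42.1 in COS1NR and 206 in MFH1NR, and was 3.81-fold higher in MFH1NR than in COS1NR by its brightest probe, though not by its second (log2 ratio -0.15). Sema5a, which carries thrombospondin repeats, had an intensity of 54.4 in MSCs, against 135 in COS1NR and 159 in MFH1NR, 1.88-fold and 1.73-fold higher in the sarcomas by its brightest probe but not by its others. Sema4c and Sema4f stayed under 2-fold in all 3 comparisons, the widest being 1.85-fold for Sema4f between MFH1NR and MSCs.

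**Figure D3:**
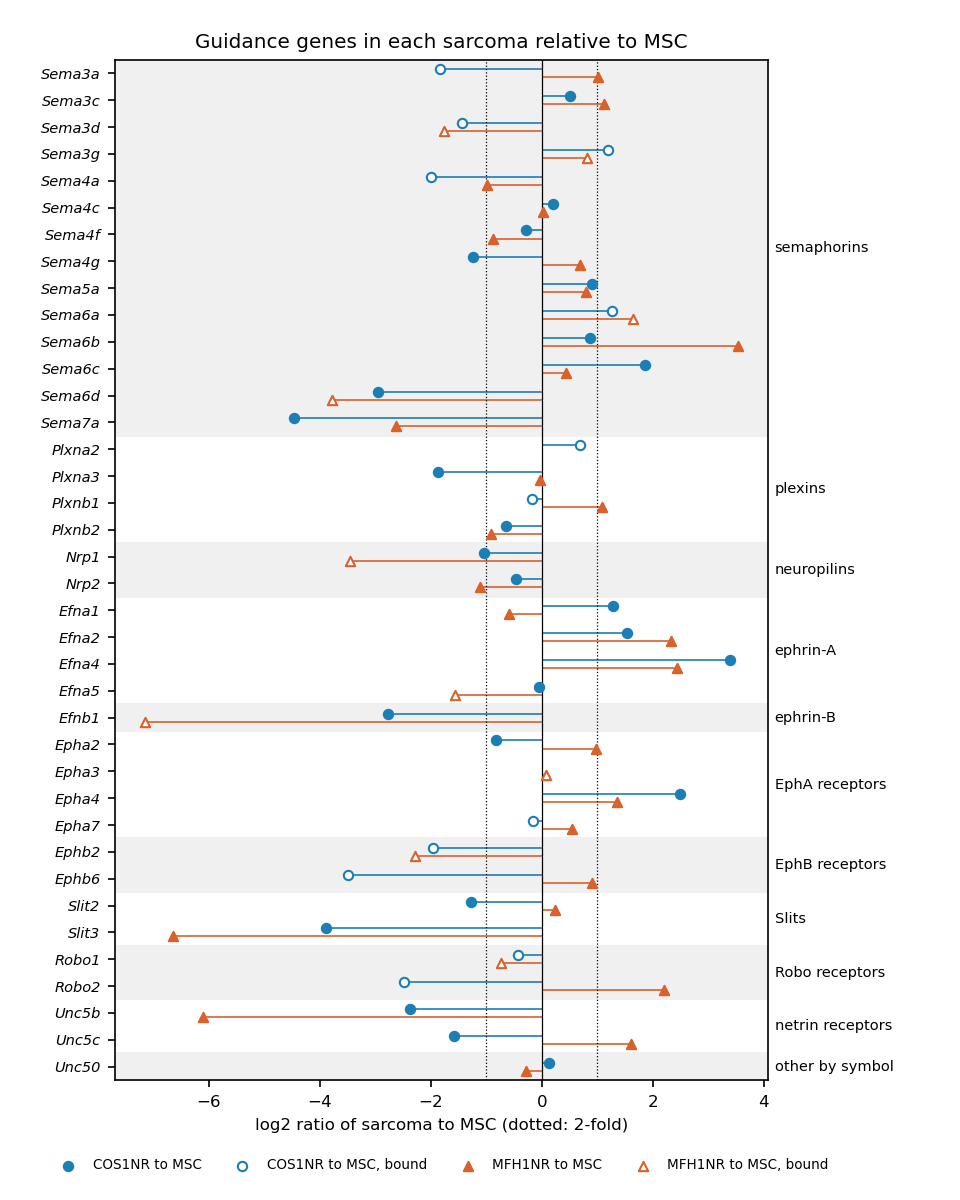
Log2 ratio of COS1NR (circles) and MFH1NR (triangles) to MSCs (x axis) for 38 guidance genes grouped by family, 1 array per cell type, with 2-fold marked by dotted lines. Open symbols are bounds because 1 array was not well above background, and the lines of Sema3a, Ephb6, Robo2 and Unc5c point left for COS1NR and right for MFH1NR.

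Among the plexins and neuropilins, the semaphorin receptors, only Nrp1 was at least 4-fold apart between any 2 arrays. Nrp1, which also serves vascular endothelial growth factor as a co-receptor, had an intensity of 196 in MSCs, against 125 in COS1NR and 6.60 in MFH1NR, where it was not well above background. It was 2.05-fold lower in COS1NR than in MSCs, lower by at least 11.0-fold in MFH1NR than in MSCs and by at least 5.36-fold in MFH1NR than in COS1NR. The difference between COS1NR and MSCs fell under 2-fold without scaling (log2 ratio -0.64), with scaling by the median (-0.88) and with normexp (-0.88). Nrp2, the relative through which Sema3c and Sema3f act, was detected on all 3 arrays at 51.7 in MSCs, against 49.2 in COS1NR and 40.3 in MFH1NR. It was 2.16-fold lower in MFH1NR than in MSCs, and the log2 ratio was -0.36 without scaling, -0.90 with scaling by the median and -0.93 after quantile normalization. Nrp1 was thus not well above background in 1 sarcoma, while Nrp2 was detected in both.

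Plxna3, a class A plexin that transmits class 3 semaphorin signals, had an intensity of 172 in MSCs, against 62.0 in COS1NR and 284 in MFH1NR. It was 3.65-fold lower in COS1NR than in MSCs and 3.56-fold higher in MFH1NR than in COS1NR, while MFH1NR and MSCs differed by 1.02-fold. Plxnb1, a receptor of Sema4d, had an intensity of 25.2 in MSCs and 89.6 in MFH1NR and was not well above background in COS1NR. It was 2.11-fold higher in MFH1NR than in MSCs and at least 2.37-fold higher than in COS1NR. Plxnb2 was measured on all 3 arrays at 1796 in MSCs, against 1502 in COS1NR and 1610.5 in MFH1NR, with no fold above 1.88. Plxna2 was well above background in COS1NR alone, at 38.1. Sema4d itself was not well above background on any array.

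Ephrin-A ligands are tethered to the membrane by a lipid. The 4 with a named probe were all well above background in MSCs and COS1NR, and Efna3 had no named probe. Efna4 had an intensity of 40.9 in MSCs, against 560 in COS1NR and 373 in MFH1NR, which made it 10.4-fold higher in COS1NR and 5.42-fold higher in MFH1NR than in MSCs. Efna2 had an intensity of 31.5 in MSCs, against 121 in COS1NR and 267 in MFH1NR, 2.91-fold and 5.02-fold higher. Both were lowest in MSCs, and with normexp the ratios of Efna2 fell under 2-fold, at 0.54 and 0.98 in log2. Efna1 was higher in COS1NR alone, at 54.5 in MSCs, against 174 in COS1NR and 61.0 in MFH1NR, a 2.43-fold difference between COS1NR and MSCs. Efna5 was lower in MFH1NR than in MSCs by at least 2.95-fold and differed by 1.03-fold between COS1NR and MSCs. Of the 4 named ephrin-A genes, 3 were at least 2-fold higher and 0 lower in COS1NR (15.1% and 14.6% of all genes), and 2 were higher and 1 lower in MFH1NR (14.3% and 16.0% of all genes).

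The ephrin-B ligands span the membrane, and 1 of 3 was well above background on any array. Efnb1, which shapes the skull and skeleton during development, had an intensity of 2543 in MSCs, against 491 in COS1NR and 9.02 in MFH1NR, where it was not well above background. It was 6.80-fold lower in COS1NR than in MSCs and at least 143-fold lower in MFH1NR. Between the sarcomas it was at least 21.0-fold lower in MFH1NR. The 3 arrays were thus far apart in the order MSC, COS1NR and MFH1NR.

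Among the Eph receptors, Epha4, which binds ephrins of both classes, had an intensity of 37.5 in MSCs, against 279 in COS1NR and 161 in MFH1NR. It was 5.66-fold higher in COS1NR and 2.55-fold higher in MFH1NR than in MSCs. Ephb6, a receptor whose kinase domain lacks activity, had an intensity of 251 in MSCs, against 7.24 in COS1NR, where it was not well above background, and 791 in MFH1NR. It was at least 11.2-fold lower in COS1NR than in MSCs and at least 21.0-fold higher in MFH1NR than in COS1NR, while MFH1NR and MSCs differed by 1.87-fold. Epha4 and Ephb6 therefore separated COS1NR from MSCs in opposite directions.

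Ephb2, a receptor of ephrin-B ligands, was well above background in MSCs alone, at 87.0. Relative to MSCs it was lower by at least 3.89-fold in COS1NR and by at least 4.88-fold in MFH1NR. Epha2, often studied in carcinomas, had an intensity of 151 in MSCs, against 111 in COS1NR and 503 in MFH1NR, and was 3.52-fold higher in MFH1NR than in COS1NR. Its folds to MSCs were 1.78 lower in COS1NR and 1.97 higher in MFH1NR. Epha7 was low, at 25.1 in MSCs and 61.8 in MFH1NR, and not well above background in COS1NR. Epha3 was well above background in MFH1NR alone, at 40.1, but was at 22.6 in MSCs. It was at least 1.05-fold higher in MFH1NR than in MSCs and at least 1.06-fold higher than in COS1NR.

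Slit3 and Slit2 are large secreted ligands of Robo receptors, and they differed in pattern. Slit3 had an intensity of 8043 in MSCs, against 708 in COS1NR and 135 in MFH1NR, all well above background. It was 14.9-fold lower in COS1NR than in MSCs and 100-fold lower in MFH1NR, and 6.72-fold lower in MFH1NR than in COS1NR. Slit2 had an intensity of 14597 in MSCs, against 7932 in COS1NR and 29040 in MFH1NR. It was 2.42-fold lower in COS1NR than in MSCs and 2.85-fold higher in MFH1NR than in COS1NR, while MFH1NR and MSCs differed by 1.18-fold. The order MSC, COS1NR and MFH1NR of Slit3 matched that of Efnb1, and the lowest level of Slit2 was in COS1NR.

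Robo2, a receptor that transmits Slit repulsion, lay on opposite sides of MSCs in the sarcomas. Its intensity was 125 in MSCs, against 6.67 in COS1NR, where it was not well above background, and 974 in MFH1NR. It was at least 5.60-fold lower in COS1NR than in MSCs, 4.61-fold higher in MFH1NR than in MSCs and at least 25.8-fold higher in MFH1NR than in COS1NR. Robo1, its close relative, was near background on all 3 arrays, at 30.2 in MSCs, against 25.2 in COS1NR and 30.6 in MFH1NR, and was called well above it in MSCs alone.

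Unc5b and Unc5c, receptors that mediate netrin repulsion, were well above background on all 3 arrays, although neither Ntn1 nor Ntn4 was on any. Unc5b had an intensity of 1474.5 in MSCs, against 373 in COS1NR and 36.3 in MFH1NR. It was 5.19-fold lower in COS1NR than in MSCs, 68.6-fold lower in MFH1NR than in MSCs and 13.2-fold lower in MFH1NR than in COS1NR. Unc5c had an intensity of 153 in MSCs, against 66.8 in COS1NR and 789 in MFH1NR. It was 3.01-fold lower in COS1NR and 3.06-fold higher in MFH1NR than in MSCs, and 9.19-fold higher in MFH1NR than in COS1NR. The sarcomas were thus ordered in opposite ways by these relatives. Unc50 stayed under 2-fold in every comparison, at 2532 in MSCs, against 3640 in COS1NR and 3499 in MFH1NR.

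**Figure D4:**
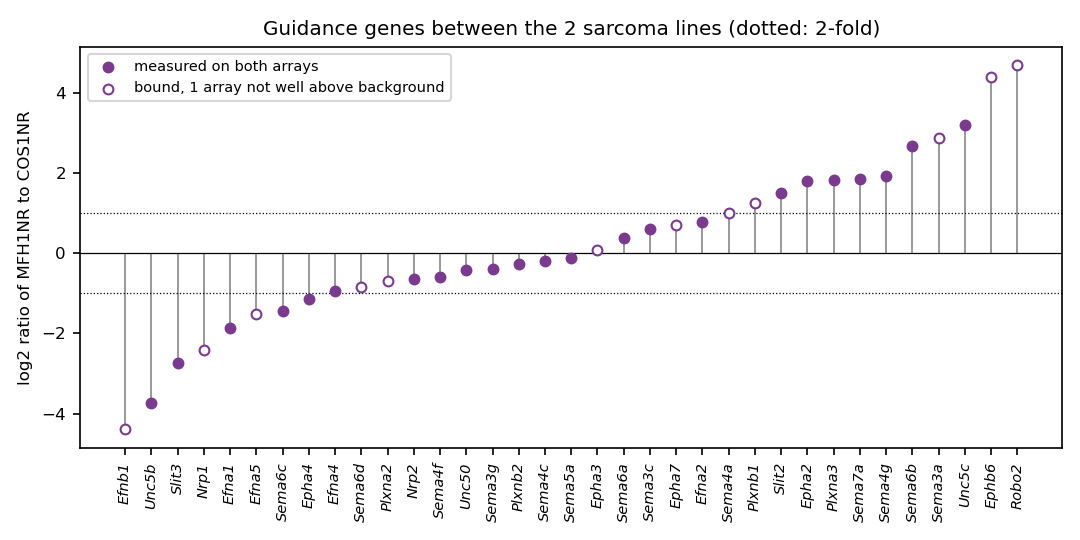
Log2 ratio of MFH1NR to COS1NR (y axis) for the 35 guidance genes with a ratio, in ascending order, 1 array per line, with 2-fold marked by dotted lines. Open circles are bounds, and the ratios run from -4.39 for Efnb1 to 4.69 for Robo2.

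Promoter windows were read for Efnb1, Slit3, Unc5b and Robo2, the 4 genes with the largest ratio between any 2 arrays when a bound is ranked at its own value, as for Efnb1 and Robo2, so that the sequence before each start site stands beside its values. The windows come from RefSeq on the build GRCr8, cover 250 bases before to 50 bases after the start of the gene and read 5′ to 3′ on the strand of the gene. They lie at chrX:68297279-68297578 on the plus strand (Efnb1), chr10:20075679-20075978 on the plus strand (Slit3), chr20:29307221-29307520 on the minus strand (Unc5b) and chr11:26526363-26526662 on the minus strand (Robo2). Capitals mark the TATA box letters TATAAA, the CCAAT box letters CCAAT and the GC box letters GGGCGG, searched on both strands, so that ATTGG and CCGCCC are matches too.
Efnb1: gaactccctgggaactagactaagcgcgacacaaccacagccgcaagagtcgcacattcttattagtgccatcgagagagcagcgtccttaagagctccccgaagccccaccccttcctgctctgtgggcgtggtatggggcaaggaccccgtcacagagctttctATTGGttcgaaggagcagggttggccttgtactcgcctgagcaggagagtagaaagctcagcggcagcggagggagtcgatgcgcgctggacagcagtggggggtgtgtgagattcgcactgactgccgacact
Slit3: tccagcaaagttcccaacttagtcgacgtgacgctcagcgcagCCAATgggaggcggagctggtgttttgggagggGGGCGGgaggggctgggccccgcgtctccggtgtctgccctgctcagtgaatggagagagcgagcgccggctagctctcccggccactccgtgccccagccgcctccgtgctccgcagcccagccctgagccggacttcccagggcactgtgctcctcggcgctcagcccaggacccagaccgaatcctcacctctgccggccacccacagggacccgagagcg
Unc5b: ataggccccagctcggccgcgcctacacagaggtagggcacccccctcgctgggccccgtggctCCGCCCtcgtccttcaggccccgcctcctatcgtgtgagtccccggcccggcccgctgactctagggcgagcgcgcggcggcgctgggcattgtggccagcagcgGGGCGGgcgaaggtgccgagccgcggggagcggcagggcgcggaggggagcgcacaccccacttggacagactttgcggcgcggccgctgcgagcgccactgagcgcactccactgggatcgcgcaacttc
Robo2: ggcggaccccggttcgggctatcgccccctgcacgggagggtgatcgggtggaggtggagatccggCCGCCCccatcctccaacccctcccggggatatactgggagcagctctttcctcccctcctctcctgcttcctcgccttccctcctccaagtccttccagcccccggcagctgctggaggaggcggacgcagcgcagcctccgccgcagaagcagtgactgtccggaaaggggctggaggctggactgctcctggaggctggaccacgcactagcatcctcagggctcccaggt
None of these 4 windows held TATAAA, Efnb1 and Slit3 held 1 CCAAT match each, and Slit3, Unc5b and Robo2 held 1, 2 and 1 GGGCGG matches. The number of CG dinucleotides was 18 in Efnb1, 24 in Slit3, 37 in Unc5b and 18 in Robo2. Windows were found for 42 guidance genes, 43 windows in all, with a median of 18 CG dinucleotides against 7 over all 33469 windows. The 33469 windows were all those of the reference and were not limited to the 13301 genes named on the array, so the sets are unlike. TATAAA was in 0 of the 43 windows against 14.2% of all, CCAAT in 34.9% against 37.5%, and GGGCGG in 51.2% against 33.1%. A match is a description of these letters and not a site shown to be in use.

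Ligands and receptors known to bind each other were set side by side. Of 16 pairs with both partners named, both were well above background in 7 pairs in MSCs, 3 in COS1NR and 2 in MFH1NR. No such share was computed for pairs of other genes. Of all single genes, 69.7% were well above background in MSCs, 65.7% in COS1NR and 66.6% in MFH1NR. Sema3c with Nrp2 and Efna1 with Epha2 passed in all 3 cell types. Sema3a with Nrp1, Slit2 with Robo1, Slit3 with Robo1, Efnb1 with Ephb2 and Efna5 with Epha7 passed in MSCs alone, and Sema6a with Plxna2 passed in COS1NR alone. The pairs with Robo1 rested on a dim call, since Robo1 was at 30.2 in MSCs, against 25.2 in COS1NR and 30.6 in MFH1NR. Epha7 was also dim in MSCs, at 25.1. The lowest intensity well above background was 18.0 in MSCs, against 29.4 in COS1NR and 30.1 in MFH1NR. Robo2 was not on the pair list, and it was well above background together with Slit2 and Slit3 in MSCs and MFH1NR. In MFH1NR, Sema3a was highest and Nrp1 was not well above background, while in COS1NR Nrp1 was well above background and Sema3a was not.

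Several probes tested 17 of the members, and their patterns were compared because each member is otherwise given by its brightest probe. Slit2 had a second probe with the same order, at 1157 in MSCs, against 875 in COS1NR and 2896 in MFH1NR. The second probe of Robo2 was well above background in MFH1NR alone, at 105, at least 3.47-fold higher than in MSCs and at least 2.79-fold higher than in COS1NR. For Epha4, Ephb2, Ephb6, Sema3d, Sema3g and Sema6d no further probe was well above background on any array, so their values rest on 1 probe each.

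In Sema4g and Sema5a, as in Sema6a, the probes disagreed in direction. The second probe of Sema4g differed little between arrays, with intensities of 33.9 in MSCs, against 38.1 in COS1NR and 44.0 in MFH1NR, and its log2 ratio of MFH1NR to COS1NR was -0.15 against 1.93 by the brightest probe. Sema5a had 6 probes, and the brightest was the only one well above background in COS1NR. The second probe of Sema5a had an intensity of 91.6 in MSCs and 95.9 in MFH1NR and was lower in COS1NR than in MSCs by at least 4.10-fold, where the brightest probe was 1.88-fold higher. In MFH1NR the second probe was 1.61-fold lower than in MSCs, where the brightest was 1.73-fold higher. The direction of Sema5a thus depended on the probe in both sarcomas.

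The 2-fold differences of further members, large ones among them, also rested on a processing choice. Without scaling, the log2 ratios to MSCs fell under 2-fold for Slit2 (-0.88) and Sema4g (-0.85) in COS1NR and for Efna5 in MFH1NR (-0.80), as did that of MFH1NR to COS1NR for Epha4 (-0.79). With the second probe this held for Slit2 (-0.80) and Sema4g (-0.22) in COS1NR, Sema3c in MFH1NR (0.61) and Sema6a in COS1NR and MFH1NR (0.66 and 0.47), and between the sarcomas for Plxnb1 (0.93). With normexp it held in COS1NR for Efna1 (0.54), Sema3g (0.33), Sema4g (-0.71), Sema6a (0.18) and Unc5c (-0.96). In MFH1NR it held with normexp for Epha4 (0.57), Plxnb1 (0.06), Sema3a (0.72), Sema3c (0.99), Sema6a (0.25), Nrp2 (-0.71) and Efna5 (-0.88). Between the sarcomas it held with normexp for Efna5 (-0.83), Epha4 (-0.93), Plxnb1 (0.43), Sema4a (0.35) and Sema4g (0.99). The mean of all probes gave log2 ratios to MSCs of -0.70 for Ephb2 and -0.43 for Ephb6 in COS1NR and of 0.10 for Epha4 and -0.99 for Sema6d in MFH1NR. It gave 0.88 for Ephb6 between the sarcomas. It also brought Sema3d (-0.52 in COS1NR and -0.85 in MFH1NR), Sema3g (0.00), Sema4g (-0.74) and Sema6a (0.98) in COS1NR, Sema3c in MFH1NR (0.86) and Sema4g between the sarcomas (0.89) under 2-fold. For Efnb1, Slit3, Unc5b, Robo2, Sema7a, Sema6b and Efna4, no alternative that gave a value brought a ratio of at least 2-fold under that threshold. All of these except Robo2 had only 1 probe, so the second probe and the mean of all probes could not change them. Their values were not checked by another probe.

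**Figure D5:**
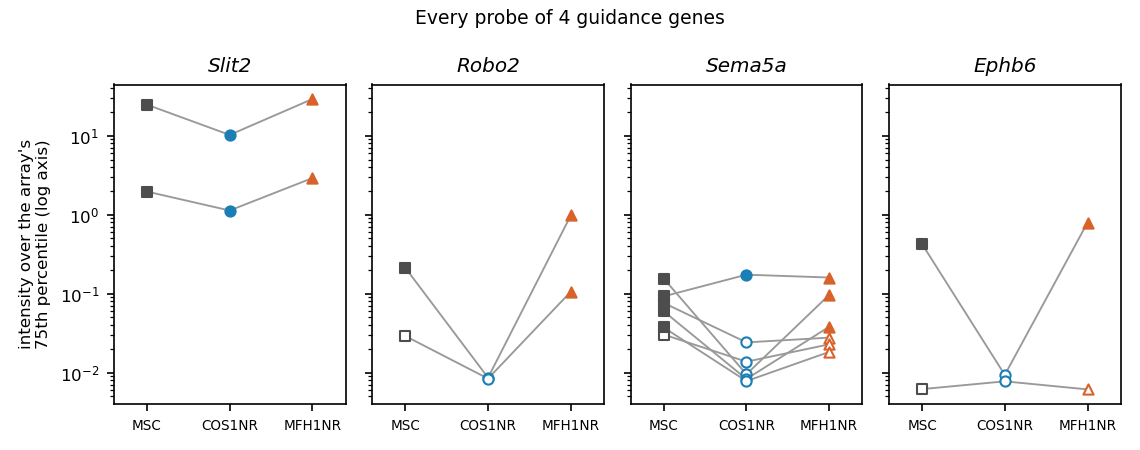
Intensity of every probe of Slit2, Robo2, Sema5a and Ephb6 divided by the 75th percentile of its array (log axis), with a line joining the 3 arrays for each probe and open symbols where the background call failed. Both Slit2 probes are lowest in COS1NR, both Robo2 probes are highest in MFH1NR, the Sema5a probes part in COS1NR, and 1 of 2 Ephb6 probes is near the bottom on all arrays.

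Genes that act with the guidance receptors were counted as lists. Of 62 genes that carry guidance signals inside the cell, such as kinases and cytoskeletal proteins, 50 were named. In COS1NR, 4 of them were at least 2-fold higher and 17 lower than in MSCs, and in MFH1NR the numbers were again 4 and 17. Over all genes the shares higher and lower were 15.1% and 14.6% in COS1NR and 14.3% and 16.0% in MFH1NR. Their median log2 ratios were -0.38 and -0.57, beside 0.10 and 0.02 over all genes. Between MFH1NR and COS1NR, 9 were higher (8.80% of all genes) and 5 lower (10.7% of all genes), with a median of 0.09. Among those well above background on all 3 arrays, the 4 with the largest absolute mean log2 ratio to MSCs were all lower in both sarcomas. They were Nfatc4, a calcium-regulated transcription factor (6691 in MSCs, against 753 in COS1NR and 2241 in MFH1NR), Fyn, a Src family kinase (2764, 752 and 486 in the same order), Farp1 (764, 147 and 241), and Rgs3, a regulator of G protein signaling (5692, 2065 and 1437).

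Of 32 other guidance ligands, receptors and co-receptors, 20 were named. In COS1NR, 1 was at least 2-fold higher and 11 were lower than in MSCs, and in MFH1NR 2 were higher and 10 lower, with median log2 ratios of -1.40 and -1.81. The shares of all genes were again 15.1% higher and 14.6% lower in COS1NR and 14.3% higher and 16.0% lower in MFH1NR. Between the sarcomas 3 were higher in MFH1NR (8.80% of all genes) and 3 lower (10.7% of all genes). Among those well above background on all 3 arrays, the 4 with the largest absolute mean log2 ratio to MSCs were Cxcl12, a chemokine that also guides axons (38914.5 in MSCs, against 6843 in COS1NR and 8973 in MFH1NR), Kdr, a receptor of vascular endothelial growth factor (306, 78.8 and 80.8), Lgr4, a receptor of R-spondins (2557, 483 and 1130.5), and Itgb1, the beta1 integrin that binds Sema7a (20001, 16415 and 6090). All 4 were lower in both sarcomas. Ntn3, a netrin outside the symbol rule, was well above background on all 3 arrays, at 183 in MSCs, against 272 in COS1NR and 1027 in MFH1NR, and was 3.32-fold higher in MFH1NR than in MSCs. Every count of both lists against MSCs carries the slide of the MSC array and the higher summed level there of macrophage, smooth muscle and pericyte, and fibroblast and MSC markers, whose part was not tested.

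Markers of other cell types were checked because several of them express guidance genes. All 13 named macrophage markers were well above background in MSCs, 7 in COS1NR and 6 in MFH1NR. Ptprc, Itgam, Adgre1, Lyz2, Cd163 and Mrc1 were well above background in MSCs and in neither sarcoma. Of the neuronal markers, Syp, Stmn2, Nefl, Nefm and Syt1 were not well above background on any array, while Snap25 and Tubb3 were on all 3 and Map2 and Gap43 on some. Of the endothelial markers, Pecam1, Tek, Emcn and Cldn5 were not well above background on any array, while Kdr passed on all 3, Cdh5 in MSCs and COS1NR, Tie1 and Esam in MSCs and Flt1 in COS1NR. The summed scaled level of 9 endothelial markers was 1.15 in MSCs, against 0.339 in COS1NR and 0.152 in MFH1NR. For 8 Schwann cell markers it was 18.9 in MSCs, against 6.97 in COS1NR and 3.45 in MFH1NR, and without Pmp22 it was 0.476, 0.504 and 0.66 in the same order. The summed level of 7 osteoblast markers was 75.6 in MSCs, against 30.8 in COS1NR and 153 in MFH1NR, and without Spp1 it was 14.1, 2.00 and 2.88. Sp7, which marks the osteoblast lineage, was not well above background in MSCs or COS1NR and had an intensity of 108 in MFH1NR, although COS1NR is the line named for osteosarcoma, while Ibsp, of bone matrix, had an intensity of 5269 in MSCs, against 491 in COS1NR and 51.7 in MFH1NR. Alpl, Bglap and Spp1 were well above background on all 3 arrays. The part of these cell types in the guidance genes was not tested.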

How the data were processed

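Cy3-labeled cRNA of MSCs, COS1NR and MFH1NR was hybridized to 1 whole rat genome array of Agilent each. The methods and the labels name different RNA and labeling kits. The authors deposited processed intensities, which the software had background-subtracted and detrended but not scaled between arrays. The file headers name Feature Extraction 10.5.1.1 and the submitters' processing notes 9.1. The deposited series table was equal to the scanner values on 3 of 3 arrays.

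Control and outlier spots were left out, log2 intensities were centered on the 75th percentile of each array, and the probe with the highest mean stood for its gene. Probes were named through RefSeq accessions with a gene table of GRCr8, whose coordinates differ from those of the array design. Counts ran over all named genes with no filter on level. With 1 array per cell type no test was made.

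Members and lists were chosen with earlier results of these data known. Members at least 4-fold apart between any 2 arrays were to be named with their intensities, as were the 4 genes with the largest absolute mean log2 ratio to MSCs among those well above background on all arrays in each pathway list, and intensities of further members and markers were added after the values were seen. Alternatives were other scalings, the series table, other probes, other floors and filters, a 3-fold threshold and, added after seeing the data, normexp with an offset of 50 on the median signal and the count without Unc50. The counting was tested on simulated data. Software was limma 3.58.1 in R 4.3.3 and, in Python 3.11.15, numpy 2.4.6, matplotlib 3.10.9 and pandas 2.3.3.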

Additional observations from a re-analysis of the deposited data

Results flagged for a closer look

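In Robo2, Sema3a and Unc5c the sarcomas lay on opposite sides of MSCs, COS1NR below and MFH1NR above, each by 2-fold or more. The log2 ratio of MFH1NR to COS1NR was at least 4.69 for Robo2, at least 2.86 for Sema3a and 3.20 for Unc5c. There was 1 array per cell type, and the difference was not tested. With a normexp background correction, the log2 ratio of Unc5c in COS1NR to MSCs was -0.96 and that of Sema3a in MFH1NR to MSCs was 0.72, both under 2-fold.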

How the results depend on the processing

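Of 63 member ratios of at least 2-fold, 57 kept their direction and 2-fold without scaling, 61 with scaling by the median, 62 after quantile normalization, 63 with the series table, 51 with the mean of all probes and 43 with normexp, and none of these settings reversed any. The series table holds the same values as the scanner files, so its result was fixed in advance. With the mean of all probes, the ratios of members with 1 probe could not change. Relative to the scaling used, the median of all genes moved by 0.39, 0.76 and 0.35 in log2 without scaling (COS1NR to MSCs, MFH1NR to MSCs, MFH1NR to COS1NR) and by 0.16, 0.22 and 0.06 with the median. Without scaling, 17 members were higher in MFH1NR than in MSCs (32.1%, against 30.5% of all genes). With the second brightest probe, the split of COS1NR to MSCs was 4 higher and 10 lower (7.55% and 18.9%, against 14.4% and 14.3%), 43 of 50 ratios kept 2-fold and Sema4g reversed between the sarcomas (-0.15). A member with 1 probe keeps its value in this setting, so only the 17 members with several probes could change. With the mean of all probes, the members' median relative to all genes between the sarcomas was 0.15. Among the 21 members well above background on all arrays, 7 were lower in COS1NR than in MSCs (33.3%, against 15.1%), 6 were higher and 4 lower in MFH1NR than in MSCs (28.6% and 19%, against 18.9% and 16.2%), and 7 were higher and 5 lower in MFH1NR than in COS1NR (33.3% and 23.8%, against 9.68% and 12.1%). At 3-fold, 3 were higher in COS1NR and 6 in MFH1NR than in MSCs (5.66% and 11.3%, against 7.12% and 7.46%), and 5 were lower in MFH1NR than in COS1NR (9.43%, against 5.98%). With normexp, 3 were higher in COS1NR and 4 in MFH1NR than in MSCs (5.66% and 7.55%, against 10.7% and 10.6%), and 13 and 8 were lower (24.5% and 15.1%, against 12.8% and 14.6%). The causes were not tested, except that the filter and the higher threshold leave fewer genes by construction. The offset of 50 that normexp adds to every signal also makes the ratios of dim genes smaller by construction, and by how much was not tested. Without Unc50 the counts were the same. Normexp on the mean signal was not run, because the columns used hold the median signal, and members that differ in both sarcomas were not counted, since both comparisons share the MSC array. No paired analysis was possible because there was 1 array per cell type, and for the same reason no replicate could be left out.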
